A study of Homo sapiens with 2 samples.

Results

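The genes described here are ISG15, the conjugating and protease genes of the ISG15 system (UBE2L6, HERC5, HERC6 and USP18) and 5 interferon-induced IFI genes (IFI6, IFI27, IFI35, IFI44 and IFI44L). They were taken as every non-control probe whose gene name in the array files was 1 of these 10 symbols, which gave 11 probes of 58201 and 10 genes of 43317 gene names. Expression was measured in Ca9-22, a human oral squamous cell carcinoma (OSCC) line, after lentiviral infection with either the long noncoding RNA DLEU1 (DLEU1 array) or a control vector (control array). Both cultures were then kept under blasticidin (6 mg/ml per the labels) for 2 weeks, so infection and selection were common to both. Each vector was measured on 1 Agilent 1-colour array, so there was no replicate and no test or p-value, and precision is limited by having so few arrays. The DLEU1 insert was a full-length cDNA amplified from another OSCC line, KON, and whether the selected cells were pooled or cloned was not given in the sources used here.

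Interferons bind receptors at the cell surface and signal through JAK kinases to factors such as STAT2 and IRF9, which bind interferon-stimulated response elements in promoters and switch on the interferon-stimulated genes (ISGs). ISG15 is one of these, a small ubiquitin-like protein that is attached to other proteins by a chain of enzymes, UBA7 (E1), UBE2L6 (E2) and HERC5 (E3), and removed by the protease USP18. USP18 also binds the receptor chain IFNAR2 and damps interferon signaling, and the IFI genes are other ISGs, several of them with antiviral functions. In the study these arrays addressed whether ectopic DLEU1 acts on ISGs.

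The 10 genes did not move together. With the DLEU1 vector 4 were higher and 6 were lower, with a median log2 difference of -0.14 (DLEU1 vector minus control vector) and a range from -1.51 for IFI44 to 0.83 for IFI6. The 4 include HERC6, whose probes disagreed, and the 6 include IFI35, which differed by -0.014. With the spike-in probes set equal or relative to B2M only IFI6 was higher, and the median of all genes was then -0.47 or -0.48. IFI44 was the only gene of the 10 at least 2-fold lower, and 0 of 10 were at least 2-fold higher. Over all 20246 genes detected on both arrays, 9.78% were at least 2-fold lower and 9.18% at least 2-fold higher, 54.2% were lower by any amount and 45.8% higher by any amount, and the median was -0.07. The counts for the 10 genes were thus close to the shares over all genes, and the SD over the 10 differences was 0.69 against 0.90 over all genes. Higher genes made up 48.4% of all genes past 2-fold, a share that was 19.0% with the spike-in probes set equal and 18.3% relative to B2M. B2M itself was higher by 0.41 with the DLEU1 vector, so every difference relative to B2M lies lower by that amount. Levels are log2 processed signal relative to the 75th percentile of the array, and fewer cells expressing a gene and less RNA per cell cannot be told apart in them.

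**Figure D1:**
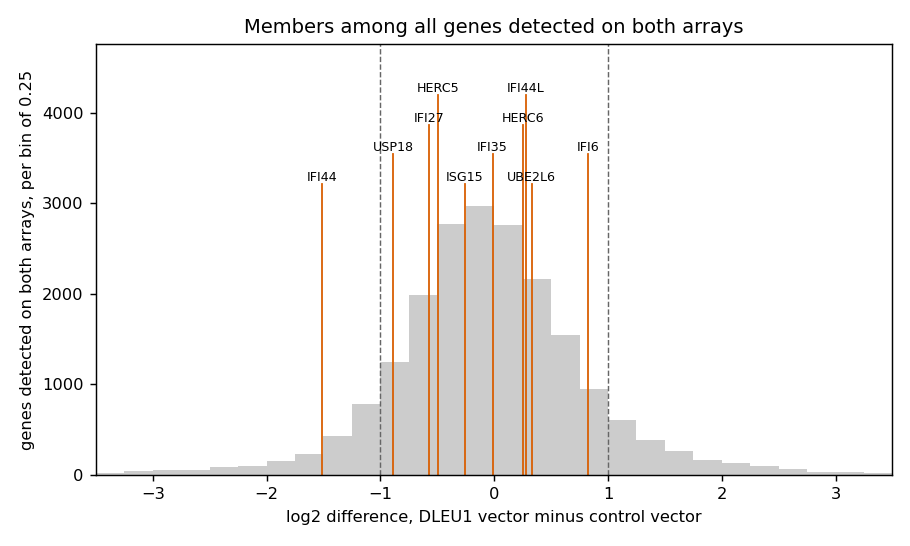
Grey bars count the genes detected on both arrays by log2 difference (DLEU1 vector minus control vector, bins of 0.25, axis ending at 3.5 on either side), and orange lines mark the 10 genes. They are spread over both sides of the distribution, and only IFI44 lies beyond the dashed lines at 2-fold.

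Technical error was read in 3 ways, none of which holds the variation between cultures. The SD of the log2 difference between repeated spots was 0.080 over 282 probes, the error modelled by the scanner software gave 0.20 to 0.24 for the log2 difference of a member probe, and the SD between different probes of the same gene was 0.47 over 4674 genes. A total of 9 of the 10 genes differed by more than their modelled error, and 5 (IFI44, USP18, IFI6, IFI27 and HERC5) by more than the SD between probes of a gene. IFI35 was the 1 gene that did not pass its modelled error. The share of all genes that passed such errors was not counted. The SD over the differences of all genes (0.90) was wider than either error, so these counts do not set the 10 genes apart. Error in parentheses below is that modelled error.

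As for the arrays as a whole, 47.6% of probes were well above background on the control array and 48.1% on the DLEU1 array. The brightest DLEU1 probe was higher by 2.74 (6.67-fold) with the DLEU1 vector, and its other probes, of another transcript, by 0.54 and 0.85. All 7 epithelial markers were detected on both arrays, while of the markers of other cell types CD3E, COL1A2, COL3A1 and PECAM1 were detected on neither, and LUM on the DLEU1 array only. The haematopoietic markers PTPRC (-1.74 on the control array and -1.28 on the DLEU1 array) and CD14 (-1.96 and -3.56) were dim. Also dim were the fibroblast marker PDGFRB and the endothelial marker CDH5. COL1A1 (0.47 and 4.47) and VWF (-2.33 and 1.37) were higher with the DLEU1 vector. All 12 proliferation genes read were at least 2-fold lower with the DLEU1 vector (median -2.63), and 8 of 9 differentiation genes detected on both arrays were at least 2-fold higher (median 5.80). The part of these in the differences described here was not tested. A strip of the DLEU1 vector array had lost signal, and 0 of the 11 probes lay in it.

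**Figure D2:**
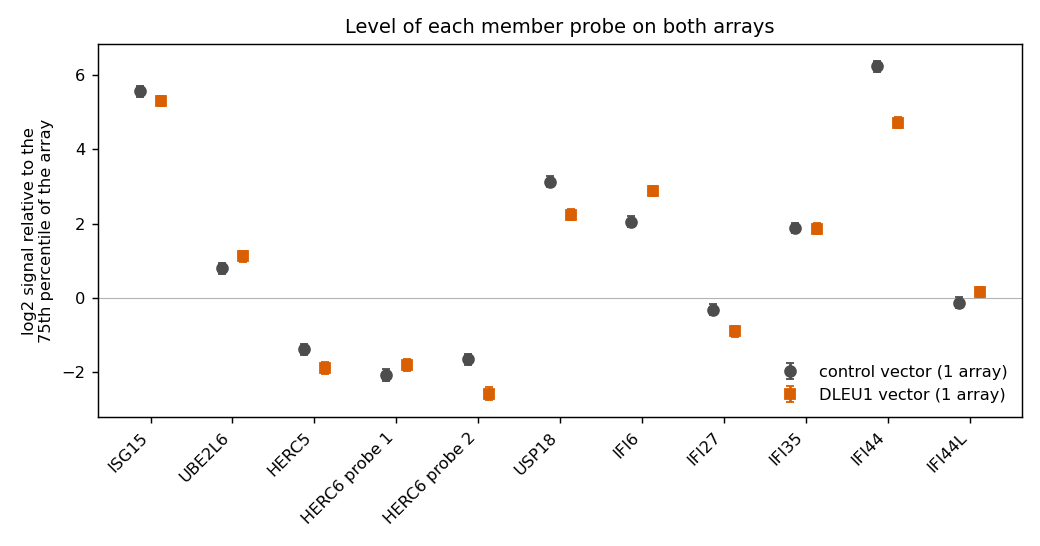
Points give the log2 level of each of the 11 probes, relative to the 75th percentile of its array, with the control vector (grey) and the DLEU1 vector (orange), 1 array each, and bars the error modelled by the scanner software. The largest gap is that of IFI44 (6.23 and 4.72), and the 2 HERC6 probes go opposite ways. Heights of different probes are not comparable.

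Most of these genes hold letters of the response element near their start. RefSeq promoter windows (GRCh38.p14, 250 bases before the gene start to 50 after) were held for 9 of the 10 genes, USP18 being the other. Its core was searched on both strands as GAAA, any 2 bases (NN) and GAAA again, and a match was found in 6 of the 9 (ISG15, HERC5, IFI6, IFI27, IFI44 and IFI44L), against 3.57% of all 35116 windows and 4.38% of 27305 genes. These letters were not in the windows of UBE2L6, HERC6 and IFI35. The upstream stretches that hold the matches are printed 5′ to 3′ on the strand of the gene, with the matched bases in capitals, because genes that share the core differed in direction. Matches on the other strand read TTTC, 2 bases and TTTC, and those of ISG15 and of HERC5 overlap in part.
ISG15: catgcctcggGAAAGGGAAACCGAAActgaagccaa
HERC5: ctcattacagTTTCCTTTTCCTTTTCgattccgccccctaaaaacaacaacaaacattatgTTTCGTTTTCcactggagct
IFI6: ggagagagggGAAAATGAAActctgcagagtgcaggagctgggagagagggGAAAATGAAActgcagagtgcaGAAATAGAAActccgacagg
IFI27: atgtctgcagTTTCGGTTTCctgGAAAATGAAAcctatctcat
IFI44: gcacactgagTTTCAGTTTCctttctct
IFI44L: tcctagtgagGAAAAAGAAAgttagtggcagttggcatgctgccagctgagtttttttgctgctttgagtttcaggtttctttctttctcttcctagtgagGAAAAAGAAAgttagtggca

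These stretches lie at chr1:1013374-1013409 (ISG15, plus strand), chr4:88456984-88457064 (HERC5, plus), chr1:27672266-27672358 (IFI6, minus), chr14:94110618-94110660 (IFI27, plus), chr1:78649761-78649788 (IFI44, plus) and chr1:78620274-78620394 (IFI44L, plus) of GRCh38.p14. Of the 6 genes with a match, IFI6 and IFI44L were higher with the DLEU1 vector and ISG15, HERC5, IFI27 and IFI44 were lower, IFI44L turning lower with the spike-in probes set equal or relative to B2M. The 3 matches of IFI6 and the 3 of HERC5 went with differences of 0.83 and -0.50. A shorter palindromic element, the gamma-activated sequence, searched as TTCNNNGAA, was found for IFI27 and IFI35, against 7.66% of all windows and 9.38% of genes. The IFI27 match overlaps both matches of the longer core.

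**Figure D3:**
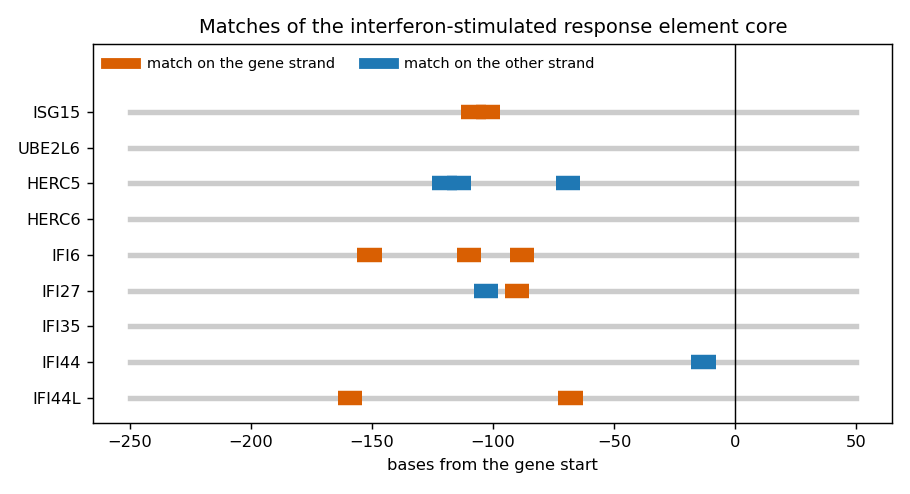
Grey lines are the promoter windows of 9 genes (horizontal axis in bases from the gene start, which is at 0), and blocks are matches of the response element core on the gene strand (orange) or the other strand (blue). IFI44 has its match 18 bases before the first of its 2 listed starts and 60 before the second, and for genes with several listed starts the first is drawn.

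ISG15 itself was slightly lower, by an amount that scaling set. Its probe A_23_P819 (transcript NM_005101, chromosome 1 from 949567 to 949626, hg19, plus strand) gave a processed signal of 11377 on the control array and 9281 on the DLEU1 array. The log2 level was 5.55 and 5.30, a difference of -0.26 (error 0.20), or 1.19-fold lower. Of 926 probes of similar brightness, within 0.5 on the log2 scale, the median difference was -0.27, so ISG15 differed as probes of its brightness did. Its difference ran from close to 0 with loess, which takes off the trend with brightness, to -0.65 with the spike-in probes set equal and -0.67 relative to B2M. With the median of the 100 nearest spots taken off it was -0.035.

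The conjugating enzymes did not share a direction. UBE2L6, the E2 that receives ISG15 from UBA7, was read by A_23_P75741 (NM_198183, chromosome 11 from 57319897 to 57319956, minus strand). Its processed signal was 421 on the control array and 515 on the DLEU1 array, and its log2 level 0.80 and 1.13. The difference was 0.33 (error 0.20), higher with the DLEU1 vector in the main setting and lower by 0.07 or 0.08 with the spike-in probes set equal or relative to B2M. With the median of the 100 nearest spots taken off it was 0.63, its highest value over the alternatives. HERC5, the main E3 ligase for ISG15 in human cells, was dim. Its probe A_23_P110196 (NM_016323, chromosome 4 from 89426889 to 89426948, plus strand) gave 93.2 and 64.4, or log2 levels of -1.38 and -1.87. The difference was -0.50 (error 0.23), and it kept its direction under every alternative run, from -0.91 relative to B2M to -0.25 with normexp background correction. UBE2L6 and HERC5, which act one after the other on ISG15, therefore lay on opposite sides of 0 in the main setting.

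HERC6, a relative of HERC5 that conjugates ISG15 in the mouse, was the only gene of the 10 with more than 1 probe, and its probes disagreed. Their starts lie 46.4 kb apart on chromosome 4 (plus strand), A_33_P3315779 from 89317234 to 89317293 and A_23_P250358 from 89363667 to 89363726, and are named in the files for transcripts NM_001165136 and NM_017912. The first 30 bases of each, as printed in the array files, are shown because the values turn on them, with no base in capitals.
A_33_P3315779: agagaggtccacaacttgtggaaagaattg
A_23_P250358: ccttacacctaaataatacaagagattaat

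A_33_P3315779 gave a processed signal of 77.4 on the control array and 39.8 on the DLEU1 array, or log2 levels of -1.65 and -2.57, a difference of -0.92 (error 0.24). A_23_P250358 gave 57.9 and 67.3, or levels of -2.07 and -1.81, a difference of 0.26 (error 0.23). The probes thus differed from each other by 1.18 in their difference between vectors, a gap reached by 9.54% of the 4674 genes with several probes detected on both arrays. The second of them was the brighter over both arrays and gave the value of the gene, whose sign turned with the mean of the probes (-0.33), with the spike-in probes set equal (-0.14) and relative to B2M (-0.15). With normexp the difference of A_33_P3315779 was -0.35, and the mean signal of the dimmer reading was 3.63 times the local background. No direction can be given for HERC6.

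USP18, which takes ISG15 off its targets, was lower with the DLEU1 vector. Its probe A_23_P132159 (NM_017414, chromosome 22 from 18659618 to 18659677, plus strand) gave a processed signal of 2122 on the control array and 1117 on the DLEU1 array. The log2 level was 3.13 and 2.24, a difference of -0.89 (error 0.20), or 1.85-fold lower. It stayed lower under every alternative run, from -1.30 relative to B2M to -0.75 with loess, and passed 2-fold with median scaling, with the spike-in probes set equal (-1.29) and relative to B2M. Of all genes detected on both arrays, 12.1% differed by less than this value, that is further down. USP41, a near copy of USP18 on the same chromosome that RefSeq lists as a pseudogene, has a probe of its own (A_32_P54553), which was lower by 0.49, and the probes share no run longer than 5 bases. Binding of USP41 RNA to the USP18 probe was not tested.

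**Figure D4:**
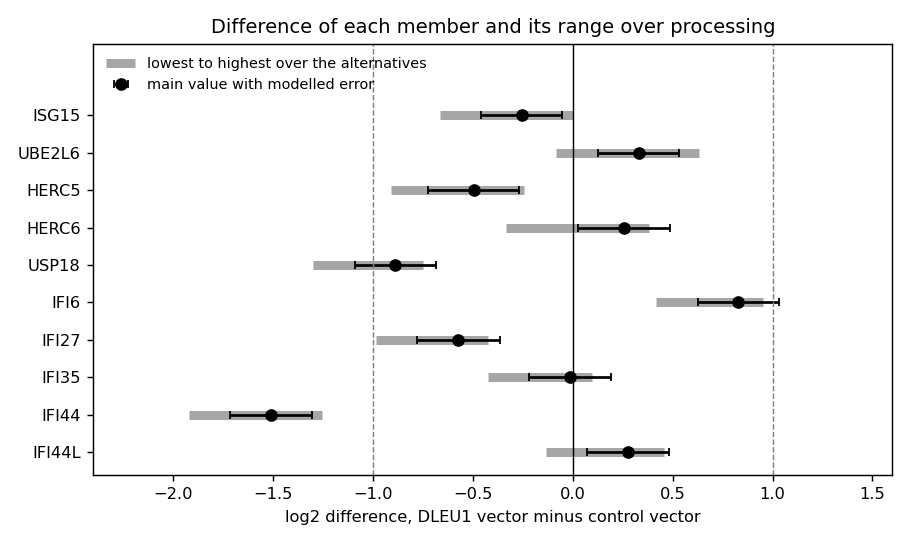
Black points are the log2 differences (DLEU1 vector minus control vector) of the 10 genes with the error modelled by the scanner software, and grey bars run from the lowest to the highest value over the processing alternatives. IFI44 lies beyond the dashed 2-fold line over its whole range (-1.92 to -1.26), while the ranges of UBE2L6, HERC6, IFI35 and IFI44L cross 0.

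Among the IFI genes, IFI6 and IFI44 stood farthest apart. IFI6, a mitochondrial and endoplasmic reticulum protein that protects cells from apoptosis, was read by A_23_P201459 (NM_022873, chromosome 1 from 27992837 to 27992896, minus strand). Its processed signal was 1004 on the control array and 1737 on the DLEU1 array, and its log2 level 2.05 and 2.88. The difference was 0.83 (error 0.20), or 1.78-fold higher, from 0.42 relative to B2M to 0.95 with loess. A total of 12.2% of all genes detected on both arrays were higher by more. IFI6 was the only gene of the 10 that was higher with the DLEU1 vector by more than the SD between probes of a gene.

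IFI44, a cytoplasmic protein strongly induced by type I interferon, was far above background, at 784 times the local background on the control array and 289 times on the DLEU1 array. Its probe A_23_P23074 (NM_006417, chromosome 1 from 79128479 to 79128538, plus strand) begins with this stretch of 30 bases, shown because it carries the largest difference.
A_23_P23074: aaggatgttctaattctttctgctctgaga

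The processed signal of IFI44 was 18184 on the control array and 6211 on the DLEU1 array, and its log2 level 6.23 and 4.72. The difference was -1.51 (error 0.20), or 2.85-fold lower, and it was at least 2-fold lower in all 15 alternatives that kept this threshold. Of these, the dim-probe filters, the mean of the probes and leaving out the strip could not change the value of its 1 bright probe. Over the alternatives that could, it ran from -1.92 relative to B2M to -1.26 with loess. Of 906 probes of similar brightness, 13.7% were at least 2-fold lower, and 3.71% of all genes detected on both arrays lay further down. In the surroundings of its spot (the 100 nearest lit probes) 12% were at least 2-fold lower, against 12.4% over the whole array, so its place on the array did not stand out.

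IFI44L, the paralog next to IFI44, differed the other way. Its probe A_23_P45871 (NM_006820, chromosome 1 from 79107590 to 79107649, plus strand) lies 20.8 kb from that of IFI44 and shares no run of more than 5 bases with it. The processed signal was 223 on the control array and 263 on the DLEU1 array, or log2 levels of -0.12 and 0.16. The difference was 0.28 (error 0.21), and it turned to -0.12 with the spike-in probes set equal and to -0.14 relative to B2M. With the median of the 100 nearest spots taken off it was 0.46. The gap between the neighbours was 1.79 on the log2 scale, in which a common scaling factor cancels, and both hold a match to the response element core in the stretches printed above. The neighbours therefore differed unequally between the vectors, whichever constant was used to scale the arrays.

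IFI27, a small mitochondrial and nuclear envelope protein of the same family as IFI6, was lower. Its probe A_24_P270460 (NM_005532, chromosome 14 from 94582967 to 94583026, plus strand) gave 195 on the control array and 127 on the DLEU1 array, or log2 levels of -0.32 and -0.89. The difference was -0.57 (error 0.21), from -0.98 relative to B2M to -0.43 with normexp. IFI6 and IFI27, which belong to one family, thus differed in opposite directions under every alternative run. IFI35, a leucine zipper protein that pairs with NMI, differed by less than its error in the main setting. Its probe A_23_P152782 (NM_005533, chromosome 17 from 41165122 to 41165181, plus strand) gave 894 and 863, or log2 levels of 1.88 and 1.87, a difference of -0.014 (error 0.20). It turned positive with the 75th percentile over detected probes, quantile normalization and loess, reaching 0.098, and was -0.41 with the spike-in probes set equal and -0.42 relative to B2M, beyond its error.

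The other genes of the pathway were read from a list of 28, of which 25 were detected on both arrays. Of these 12 were higher and 13 lower with the DLEU1 vector, with a median difference of -0.09. The 2-fold threshold was passed upward by 3 (STAT2, UBA7 and IRF1) and downward by 1 (SKP2). Among all 20246 genes detected on both arrays, 9.18% passed it upward and 9.78% downward. Whether the 25 pathway genes differ from all genes in these counts was not tested. UBA7, the E1 at the head of the ISG15 chain, was dim, with a processed signal of 44.5 on the control array and 127 on the DLEU1 array. Its log2 level was -2.44 and -0.89, a difference of 1.55, which was 0.90 with normexp and then below 2-fold, and it had no value at a signal minimum of 100. UBA7 and UBE2L6 were thus higher and HERC5, USP18 and ISG15 lower in the main setting, UBE2L6 turning with the spike-in probes set equal and relative to B2M.

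Of the factors that drive these genes, those given here (STAT2, IRF9, IRF1 and IRF7) were higher at their brightest probe, by unequal amounts. STAT2 gave a processed signal of 4241 on the control array and 15847 on the DLEU1 array, a log2 difference of 1.94 or 3.84-fold. IRF9, its DNA-binding partner, was higher by 0.79 (error 0.20) at its brighter probe (2.35 against 1.56). Its dimmer probe differed by -0.20 (error 0.24), which lies within its error. STAT2 was thus at least 2-fold higher, while IRF9 was not. IRF1 was higher by 1.03, which was under 2-fold with normexp (0.93) and with median scaling, no scaling, spike-ins set equal or B2M as the reference, IRF7 by 0.76 and JAK1 by 0.75. SKP2, an F-box protein of the cell cycle that also marks USP18 for degradation, gave processed signals of 385 and 111, a difference of -1.75 or 3.37-fold lower.

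At the receptor, IFNAR1 differed by -0.14 and IFNAR2, to which USP18 binds, by -0.44 at its brightest probe and by -0.62 and -0.16 at its others. NMI, the partner of IFI35, differed by 0.045 over 10 spots, TRIM25, an E3 ligase that ISG15 also modifies, by -0.09, and ARIH1, an E3 with a reported part in conjugation, by 0.31 at its brightest probe and by -0.14 and 0.52 at its others. UBE2L3, the ubiquitin E2 nearest to UBE2L6, differed by -0.76 and IFI30, a lysosomal thiol reductase, by -0.68. HERC4 differed by -0.64 at its brightest probe and by -0.055 and -0.77 at its others. HERC2 differed by -0.59 at its brightest probe, which lay in the strip of lost signal, and by -0.68 to -0.45 at its other 3 probes, which did not. Of the remaining genes, HERC3 and ITGAL were detected on neither array and ITGB2 with the control vector only. ITGAL and ITGB2 form the leukocyte integrin LFA-1, a receptor for extracellular ISG15.

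**Figure D5:**
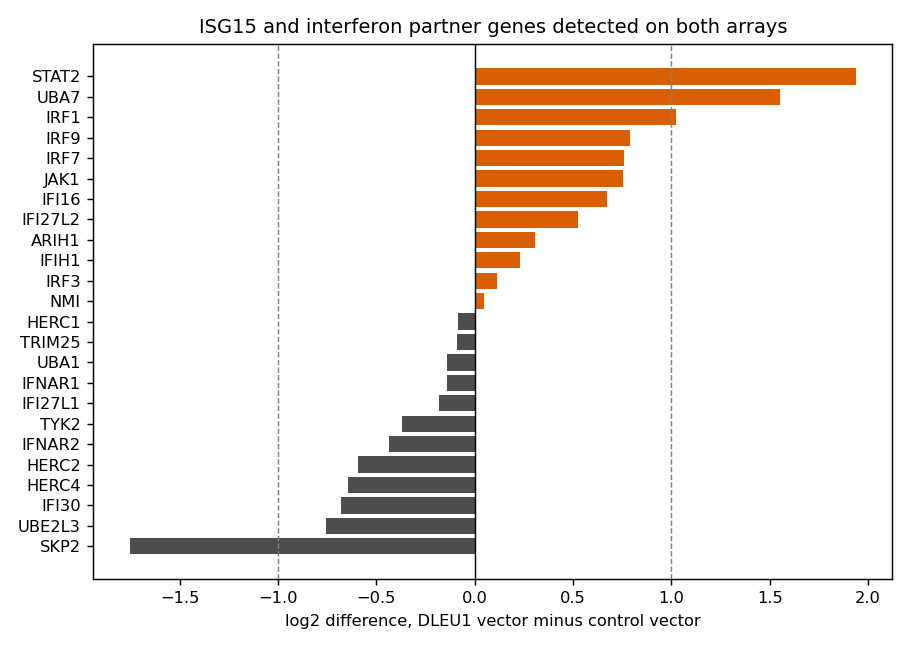
Bars give the log2 difference (DLEU1 vector minus control vector, 1 array each, no error bars) of the genes of the pathway list detected on both arrays and reported here, higher in orange and lower in grey, with dashed lines at 2-fold. STAT2 (1.94), UBA7 (1.55) and IRF1 (1.03) pass the upper line and SKP2 (-1.75) the lower one, and the others lie between.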

How the data were processed

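Total RNA of Ca9-22 cells was labelled with Cy3 and hybridised to 1 SurePrint G3 Human GE v3 array per vector. Scanning gave the deposited intensity of each spot, from which Feature Extraction 10.7.3.1 had, per the file headers, removed the background and a spatial trend, with surrogates for dim spots. Flags for background and outliers were read beside it. The authors analysed the arrays in GeneSpring GX version 13. The series values were the same intensity, rounded (within 0.497%), and no file was normalized between arrays. Probe positions are on hg19.

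Control spots and outlier spots (84 and 103) were left out. Spots of a probe were averaged on the log2 scale, and the 75th percentile over 58201 probes (7.92 and 7.88) was subtracted. A probe was detected where most spots were well above background, a gene took its probe with the highest mean level over both arrays among those detected on both, and 2-fold was the threshold. No spot was saturated (0). Python 3.11.15 and limma 3.58.1 in R 4.3.3 were used, with the calculation tested on simulated data. The genes and lists were chosen with earlier results of these data known. Named were all 10 genes, DLEU1, B2M and, from the pathway list, the 5 farthest each way and those with a direct role. Other genes named were chosen after their values were seen. Values of 1 pathway gene and 1 marker, counted in their lists, are not reported here. The strip was the area where probes at least 2-fold lower made up 2.5 times the share of the whole array or more among the 100 nearest, which held 508 probes.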

Additional observations from a re-analysis of the deposited data

How the results depend on the processing

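With 1 array per vector no replicate could be left out. No paired analysis was possible because each vector has 1 array. The cause of the shifts below was not tested unless stated. Scaling decided the sign of both list medians. The median of the 10 genes (-0.14) was -0.25 with median scaling, -0.024 where only detected probes set the 75th percentile, 0.022 after quantile normalization, 0.043 with loess (span 0.3), -0.53 with the spike-in probes set equal, -0.55 relative to B2M, -0.29 with the mean of the probes and -0.047 with the median of the 100 nearest spots taken off. That of the pathway genes (-0.09) was -0.20, 0.026, 0.12, 0.14, -0.48, -0.50 and 0.045 in the same order, leaving out the mean of the probes, where it was -0.09. DLEU1 was 2.62 with median scaling, 2.85 with the percentile over detected probes, 2.92 with quantiles, 2.97 with loess, 2.34 with spike-ins, 2.33 relative to B2M and 1.38 with the mean of its probes. Spike-in scaling rested on 8 E1A probes and moved every gene by -0.40, so that all genes had a median of -0.47.

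The number of the 10 genes at least 2-fold lower (1) was 2 with median scaling, with spike-ins and relative to B2M, where USP18 passed. Over all genes the shares at least 2-fold lower in these settings were 12.1%, 21.4% and 21.9%. By construction, at 1.5-fold 2 were lower and 1 higher (all genes 22.0% and 18.4%), and at 3-fold 0 were lower (all genes 3.31%). Of the 25 pathway genes, 1 was at least 2-fold higher with normexp (offset 50), against 5.53% of all genes. At least 2-fold lower were 4 of 25 with spike-ins (all genes 21.4%) and 5 of 25 relative to B2M (21.9%). With no filter on dim probes it was 2 of 28 (all genes 8.79%), and with detection on at least 1 array 2 of 26 (11.7%). At 1.5-fold 7 were higher and 5 lower (all genes 18.4% and 22.0%), and at 3-fold 1 was higher (all genes 3.82%). The alternatives gave 148 values of the 10 genes, of which 88 lay within the spot SD of the main value and 60 beyond it. Many of the 88 equalled the main value by design. The dim-probe filters, the strip and, for genes with 1 probe, the mean of the probes could not change a value that was kept. A total of 10 values in 4 genes (UBE2L6, HERC6, IFI35 and IFI44L) changed sign. HERC5, HERC6 and, of the pathway genes, UBA7 have no value at a signal minimum of 100 on both arrays, since their processed signal was below it on at least 1. Leaving out the damaged strip could not change a value of the 10 genes, since 0 of the 11 probes lay in it. The series values, the same intensities rounded, changed no direction.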

Other observations

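Probes of other names within 15 kb of the 11 probes (hg19) were read after the values above were known. There were 12, of which 7 were detected on both arrays, 4 higher and 3 lower with the DLEU1 vector. At 3.19 kb from the IFI6 probe lay a probe of the long noncoding transcript lnc-FAM76A-1 (A_22_P00006278, chromosome 1 from 27996030 to 27996089, plus strand, opposite to IFI6). It had log2 levels of 1.22 on the control array and 2.03 on the DLEU1 array. Its difference of 0.81 stood beside 0.83 for IFI6. On the other strand of the IFI44 locus, a probe of lnc-ELTD1-6 (A_22_P00005720, 1.42 kb from that of IFI44) was lower by 0.38, with levels of 3.02 and 2.64, beside -1.51 for IFI44.

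Beside IFI35, both probes of VAT1, which encodes a vesicle membrane protein, were higher by 1.33 and 1.34 while IFI35 differed by -0.014. On the far side of IFI35, RPL27, a ribosomal protein gene, differed by -0.76. IFI27 lies between IFI27L1 (-0.18) and IFI27L2 (0.53), its relatives in the pathway list, while IFI27 differed by -0.57.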
